A study of Homo sapiens with 16 samples.

Results

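The replicative helicase genes measured here were MCM2, MCM3, MCM4, MCM5, MCM6, MCM7, GINS1, GINS2, CDC45 and MCM10, which are 10 of the 23230 gene symbols counted in each library. They were taken by symbol from a list of genes for the helicase and its activation, which leaves out the GINS subunits GINS3 and GINS4, and all 10 had enough counts to be tested. The libraries were mRNA sequencing of 8 established human blood cell lines, each exposed to the peptide Y518R, which binds DPY30 per the labels, or to the peptide 3R, which does not, with 1 library for each line and peptide (16 in all). DPY30 is a core subunit of the enzyme complexes that place methyl groups on lysine 4 of histone H3. The lines with a fusion of the MLL gene were MOLM13 and THP1 (both labelled MLL-AF9), RS4-11 (MLL-AF4) and KOPN8 (MLL-ENL). The other lines were K562 (BCR-ABL leukemia), RAJI (Burkitt's lymphoma), JURKAT (labelled a Myc dependent T cell leukemia) and P493-6, a B cell model of Burkitt's lymphoma in which MYC comes from a transgene. All lines grew in the same medium at 2.5% bovine serum, and no label gives the dose of peptide or the time on it. The replicates of a comparison were therefore the lines (n = 8, or n = 4 per class).

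The products of MCM2 to MCM7 form a ring of 6 different ATPases that is loaded around DNA at replication origins before S phase and stays inactive there. The ring becomes the moving helicase when CDC45 and the GINS complex, of which GINS1 and GINS2 are subunits, bind to it. MCM10 is needed for the assembled helicase to unwind DNA and leave the origin. The genes of this machinery are textbook targets of the E2F transcription factors, are transcribed most towards the start of S phase in dividing cells, and are high in leukemias and lymphomas.

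Start site sequences are shown for MCM2, MCM6, MCM7 and GINS1, which each hold the E2F letters. MCM3 and GINS2 hold them too and are not shown. MCM7 and GINS1 had the lowest unadjusted p values of the 10 genes in the peptide comparison, where none of the 10 was called. Of the 3 start sites listed for MCM7 the first is shown, and the windows of the others did not hold the letters. The sequences are from RefSeq (GRCh38.p14), run 5′ to 3′ on the strand of the gene, and reach from 220 bases before the annotated start site over its first 30 bases. Capitals mark the E2F letters, searched as TTTCCCGC, TTTCGCGC, TTTGCCGC and TTTGGCGC on both strands, with overlapping matches joined. The windows are chr3:127598191-127598440 (plus strand) for MCM2, chr2:135876414-135876663 (minus strand) for MCM6, chr7:100101368-100101617 (minus strand) for MCM7 and chr20:25407453-25407702 (plus strand) for GINS1.
MCM2: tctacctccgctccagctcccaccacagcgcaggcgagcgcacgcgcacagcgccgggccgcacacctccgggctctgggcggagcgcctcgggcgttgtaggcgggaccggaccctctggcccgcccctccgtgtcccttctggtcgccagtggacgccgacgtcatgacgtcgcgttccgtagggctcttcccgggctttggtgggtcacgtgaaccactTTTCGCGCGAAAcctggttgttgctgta
MCM6: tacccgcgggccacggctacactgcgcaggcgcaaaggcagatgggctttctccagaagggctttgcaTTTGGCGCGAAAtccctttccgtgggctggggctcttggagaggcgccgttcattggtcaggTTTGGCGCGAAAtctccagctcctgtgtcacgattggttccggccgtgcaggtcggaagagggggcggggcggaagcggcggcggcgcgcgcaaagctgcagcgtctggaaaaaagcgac
MCM7: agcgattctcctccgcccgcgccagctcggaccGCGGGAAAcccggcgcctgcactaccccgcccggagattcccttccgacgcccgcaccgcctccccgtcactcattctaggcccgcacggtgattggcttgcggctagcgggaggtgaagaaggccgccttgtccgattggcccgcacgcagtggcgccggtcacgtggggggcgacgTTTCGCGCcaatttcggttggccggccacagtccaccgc
GINS1: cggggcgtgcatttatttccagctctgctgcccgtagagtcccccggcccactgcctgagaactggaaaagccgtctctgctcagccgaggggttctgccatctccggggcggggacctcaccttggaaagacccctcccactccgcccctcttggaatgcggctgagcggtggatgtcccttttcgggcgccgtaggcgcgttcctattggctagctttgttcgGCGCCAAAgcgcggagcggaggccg

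In MCM6 the same 12 letters, TTTGGCGCGAAA, stood at 2 places that began 152 and 90 bases before the start site. MCM2 had TTTCGCGCGAAA beginning at base 3 and GINS1 had GCGCCAAA beginning at base 6, with the start site as base 1. MCM7 had GCGGGAAA at 187 bases and TTTCGCGC at 9 bases before the start site, and the last base of the second place is also the first base of a CCAAT box. Windows from 250 bases before to 50 bases after the start were searched for 8 of the 10 genes. No window of MCM4 or MCM5 was searched, so the counts below leave both genes out and say nothing about their start sites. Of these 8 genes, 6 held the E2F letters in at least 1 window (MCM2, MCM3, MCM6, MCM7, GINS1 and GINS2; 6 of their 12 windows), and CDC45 and MCM10 did not hold these letters in the windows searched. Of all 35116 windows in the table, 3.31% held the letters, and of the windows of tested genes 4.88%. The letters CCAAT on either strand were in a window of 7 of the 8 genes, all but MCM2. By window they were in 10 of the 12, against 34.6% of all windows. The letters TTTGAA, the core of the cell cycle homology region, were in none of the 12 windows, against 15.2% of all windows and 10.5% of the windows of tested genes. A match of letters describes the sequence and was not tested for binding.

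Libraries held 19354300 to 43003124 gene counts, and the 10 genes together took 0.0938% (MOLM13, 3R) to 0.393% (KOPN8, Y518R) of them. Reads given to no gene were 17.7% to 26.9% of the reads counted to 1 gene, to none or to more than 1 in 15 libraries and 44.7% in RAJI 3R, so results that rest on RAJI are also given without it. The lines carried the markers of their labels: HOXA9, HOXA10 and MEIS1 summed to 88.6 to 627 CPM (counts scaled by library size and TMM factor) in the 8 libraries of the MLL-fusion lines and to 0.0712 to 6.29 CPM in the 8 libraries of the other lines. The exception within that list was MEIS1 in THP1, at 0.199 CPM with Y518R and 0.0633 CPM with 3R. All 5 B cell markers were above 10 CPM in RS4-11, KOPN8, RAJI and P493-6, all 5 T cell markers in JURKAT and all 5 erythroid markers in K562. In MOLM13 and THP1, 4 of 5 myeloid markers passed 10 CPM with Y518R and 5 of 5 with 3R.

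Levels of the helicase genes had a wider range over lines than over peptides, whose largest ratio in any line was 1.70-fold (MCM2 in MOLM13). For all 10 genes MOLM13 or P493-6 was the lowest line. KOPN8 was the highest line for MCM2, MCM3, MCM5, MCM6 and GINS2, K562 for MCM7 and CDC45, JURKAT for GINS1 and MCM10, and RAJI for MCM4. Taking the mean of the libraries of each line, the highest line was between 2.80 times (MCM3) and 23.5 times (CDC45) the lowest. These are bulk libraries, so fewer cells in S phase and less RNA per cell cannot be told apart as the basis of a lower level.

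**Figure D1:**
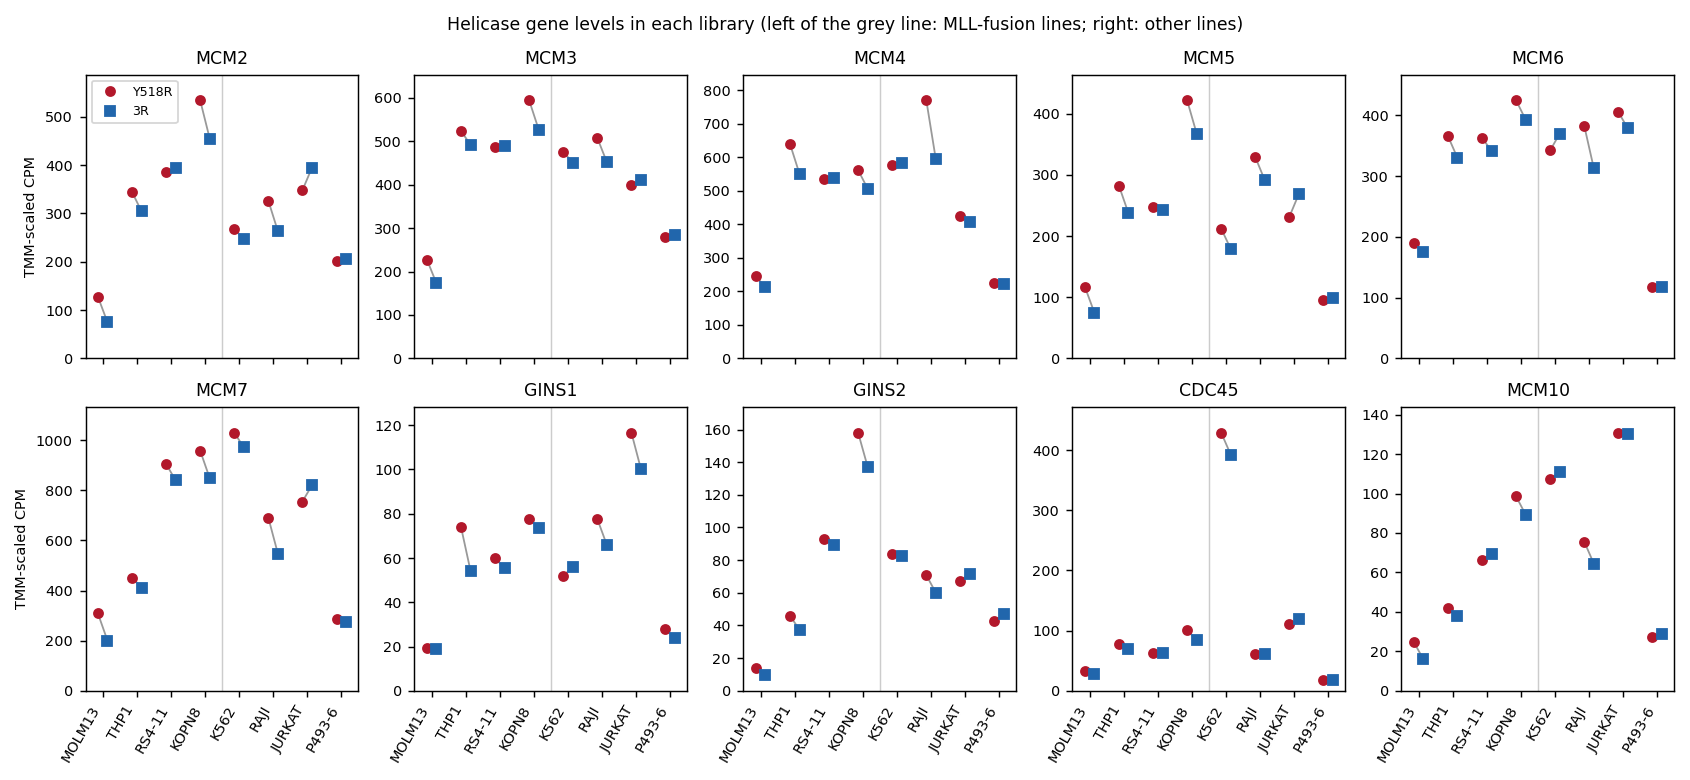
TMM-scaled CPM of each helicase gene in each of the 16 libraries, with 1 panel per gene, Y518R as circles and 3R as squares, and the MLL-fusion lines left of the grey line in every panel. The circle and square of a line lie close together beside the full range over lines, but in every panel except CDC45 some neighbouring lines overlap. MOLM13 and P493-6 lie at the bottom of nearly every panel, and K562 stands alone at the top for CDC45, at 429 CPM with Y518R and 392 CPM with 3R.

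Among the ring subunits, MCM2 was at 127, 344, 385 and 534 CPM with Y518R in MOLM13, THP1, RS4-11 and KOPN8, against 74.9, 304, 394 and 455 CPM with 3R. In K562, RAJI, JURKAT and P493-6, MCM2 was at 268, 326, 348 and 202 CPM with Y518R, against 247, 263, 395 and 205 CPM with 3R. KOPN8 stood clear of the next line, RS4-11, and MOLM13 clear of P493-6, while 3 of the 7 pairs of neighbours in the order overlapped in their library values. MCM3 had the narrowest range of the 10 genes by line means, at 228 to 594 CPM with Y518R and 173 to 527 CPM with 3R, although with 3R alone the range of MCM4 was narrower, and 2 of its 7 neighbouring pairs overlapped. MCM4 ran from 224 to 770 CPM with Y518R and from 212 to 593 CPM with 3R; RAJI, THP1 and K562 overlapped at the top of its order, and MOLM13 and P493-6 at the bottom. MCM5, whose product forms the gate of the ring together with that of MCM2, ran from 95.2 to 422 CPM with Y518R and from 74.7 to 368 CPM with 3R, with KOPN8 and then RAJI each clear of the line after it.

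MCM6 was at 118 CPM with each peptide in P493-6 and at 190 CPM with Y518R and 175 CPM with 3R in MOLM13. Its levels in the other 6 lines ran from 342 to 425 CPM with Y518R and from 313 to 393 CPM with 3R, and 4 of its 7 neighbouring pairs overlapped. MCM7 ran from 286 CPM (P493-6) to 1030 CPM (K562) with Y518R and from 201 CPM (MOLM13) to 972 CPM (K562) with 3R. Its exons overlap those of AP4M1 on the opposite strand over 277 bases, 7.58% of its exon length in GENCODE v29, and those of MCM2 overlap opposite-strand genes over 1158 bases, 31.97%. Of the MCM2 overlap, 45 bases (1.24%) are shared with TPRA1, which is in the count tables, and the rest is with AC023593.1, a name that is not in them. No label or file header says whether reads were counted by strand, so reads from those stretches cannot be told apart.

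The genes of the activating subunits had wider ranges over the lines than those of the ring. GINS1 was highest in JURKAT, at 117 CPM with Y518R and 100 CPM with 3R, clear of KOPN8 as the next line; from KOPN8 down to K562 all neighbours overlapped, and P493-6 and MOLM13 followed at 27.7 and 19.6 CPM with Y518R and at 24.0 and 19.0 CPM with 3R. GINS2 ran from 14.03 CPM in MOLM13 to 158 CPM in KOPN8 with Y518R and from 9.58 to 137 CPM in the same lines with 3R, a 12.5-fold range between line means. CDC45 was at 429 CPM with Y518R and 392 CPM with 3R in K562, at 111 CPM with Y518R and 118.7 CPM with 3R in JURKAT, and at 17.3 CPM with Y518R and 17.6 CPM with 3R in P493-6. None of the 7 pairs of neighbouring lines overlapped for CDC45, and K562 alone made its range the widest of the 10 genes. MCM10 ran from 24.7 CPM (MOLM13) to 131 CPM (JURKAT) with Y518R and from 15.99 to 130.2 CPM in the same lines with 3R, with 1 overlapping pair, RAJI and RS4-11.

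Levels of different genes were compared per kilobase of the principal GENCODE v29 transcript. On this scale MCM7 was the highest ring subunit in 14 of 16 libraries, at a median of 1.84 times the mean of the 6 ring genes in the same library (lowest 1.23 in THP1 Y518R, highest 2.43 in K562 Y518R). MCM3 was the highest in the other libraries, and MCM5 the lowest in 12, at a median of 0.543 times the mean. Within a library the highest ring subunit was between 2.04 times (THP1 Y518R) and 6.49 times (K562 3R) the lowest. GINS1, MCM10, GINS2 and CDC45 had median ratios of 0.143, 0.163, 0.211 and 0.275 to the ring mean. CDC45 in K562 was the exception, at 1.43 times the ring mean with Y518R. The scale depends on the length used. All exons of MCM7 together cover 3652 bases, against 2957 in its principal transcript, and those of MCM10 4643 against 3157. In the other genes the lengths were the same or closer. Over all exons MCM7 and MCM10 would stand lower, and the order of the ring genes was not worked out on that length.

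**Figure D2:**
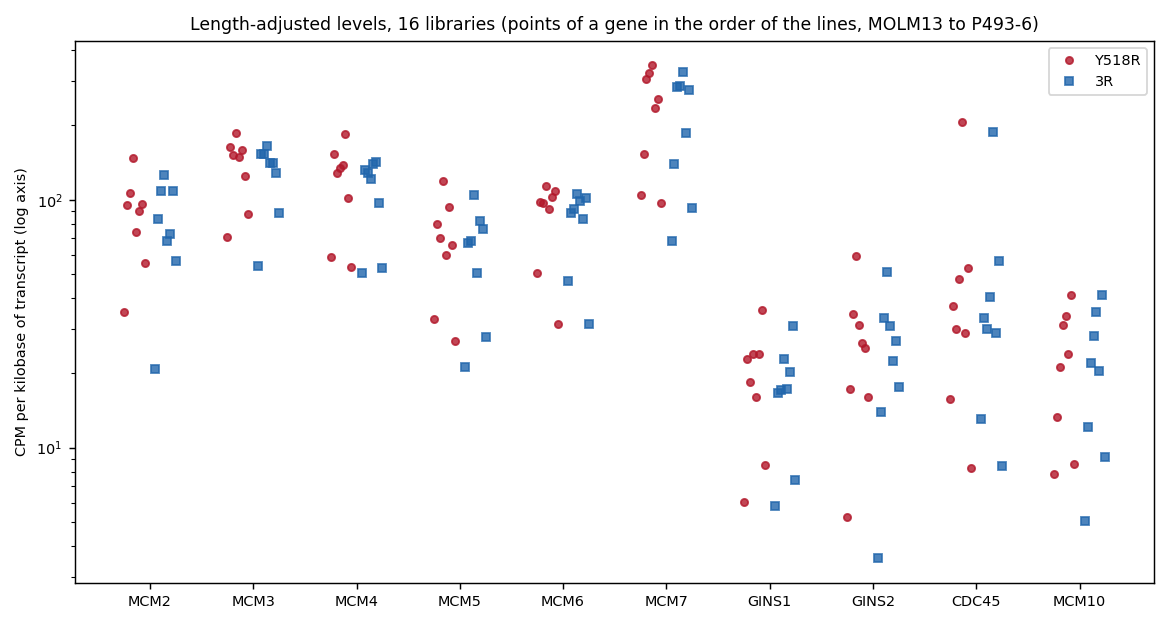
CPM per kilobase of transcript (log axis) for each helicase gene in 16 libraries, Y518R as circles and 3R as squares, with the points of a gene in the order of the lines from MOLM13 to P493-6. The ring genes MCM2 to MCM7 lie above GINS1, GINS2 and MCM10 in general, MCM7 reaches the highest values, and the K562 points of CDC45 reach the range of the ring genes.

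A first comparison asked whether the classes of lines differed with the non-binding peptide, 3R. Of 13107 genes tested by edgeR's quasi-likelihood test with Benjamini-Hochberg adjustment, 7 passed an adjusted p of 0.05 (0.0534%), and none of the 10 helicase genes did; 1323 genes and 0 helicase genes had an unadjusted p under 0.05 (5.4% of genes with a higher and 4.69% with a lower level in MLL-fusion lines), and DESeq2 and limma-voom also called 0 of the 10. CDC45 was at 27.2, 69.8, 63.0 and 84.6 CPM in MOLM13, THP1, RS4-11 and KOPN8, against 392, 60.5, 118.7 and 17.6 CPM in K562, RAJI, JURKAT and P493-6. The classes overlapped, and the fitted difference of −1.27 (log2, SE 0.84, adjusted p = 0.629) was −0.11 without K562. MCM10 was at 15.99, 38.1, 69.5 and 89.3 CPM in the MLL-fusion lines and at 111, 64.5, 130 and 28.8 CPM in the other lines, a fitted difference of −0.65 (SE 0.62, adjusted p = 0.749). The median difference of the 10 genes was 0.034 (−0.31 without KOPN8 and 0.26 without MOLM13), and 6 of 10 lay above 0, against 49.2% of all genes tested.

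The main comparison asked whether the helicase genes differed between Y518R and 3R over all 8 lines, with the line as block. All 10 genes had a fitted log2 change above 0, where 49.1% of the 13043 genes tested did, and their changes were small, from 0.085 (CDC45) to 0.17 (MCM7) with a median of 0.13, against a median of −0.0021 over all genes tested. None of the 10 passed an adjusted p of 0.05, nor did any other gene (0%), and the adjusted p was 0.9996 for each of the 10. At an unadjusted p under 0.05 there were 3 helicase genes, MCM7, GINS1 and MCM4, where 1.45% of all genes tested had such a p with a higher level and 1.59% with a lower one. DESeq2 and limma-voom called 0 of the 10 genes as well. The genes share their libraries, so 10 values above 0 are not 10 independent observations. The median change of the 10 genes within a line had an SD of 0.17 over the 8 lines, larger than the median itself.

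MCM7 was higher with Y518R in 7 of 8 lines. Its level was 309, 451, 905 and 958 CPM with Y518R in MOLM13, THP1, RS4-11 and KOPN8, against 201, 412, 840 and 849 CPM with 3R. In K562, RAJI, JURKAT and P493-6 it was 1030, 691, 755 and 286 CPM with Y518R, against 972, 547, 820 and 273 CPM with 3R. JURKAT was the line that went the other way, and the ranges of the peptides overlapped almost wholly because the lines differ so much. The mean log2 ratio was 0.17 ± 0.22 (SD, n = 8 lines), and the fitted change was 0.17 (SE 0.069, unadjusted p = 0.0238, rank 127 of all genes tested); without MOLM13 it was 0.11.

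GINS1 was also higher in 7 of 8 lines, all but K562. With Y518R it was at 19.6, 74.1, 59.97 and 77.5 CPM in MOLM13, THP1, RS4-11 and KOPN8, against 19.0, 54.2, 55.4 and 73.8 CPM with 3R. The other lines, K562, RAJI, JURKAT and P493-6, had 51.8, 77.6, 117 and 27.7 CPM with Y518R and 56.1, 65.9, 100 and 24.0 CPM with 3R. THP1 had the largest ratio, 0.45 on the log2 scale with an exact 95% counting interval of 0.36 to 0.54. Over the lines the mean ratio was 0.15 ± 0.17 (SD, n = 8), and the fitted change was 0.16 (SE 0.064, unadjusted p = 0.0271) over all lines and 0.094 without RAJI and THP1.

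MCM6 was the third gene higher in at least 7 lines, a count that 3.01% of all genes tested reached. Its ratios were small, a mean of 0.093 ± 0.12 (SD, n = 8), its 8th line was K562 at −0.11, and in P493-6 the peptides differed by less than counting error. MCM4, with a change of 0.13 (SE 0.055, unadjusted p = 0.0357), was higher in 6 of 8 lines, and its largest ratios were 0.38 in RAJI, 0.22 in THP1 and 0.21 in MOLM13. Without RAJI and THP1 the change of MCM4 was 0.071. MCM5 and GINS2 were each higher in 6 of 8 lines, and MCM2, MCM3, CDC45 and MCM10 in 5 of 8.

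**Figure D3:**
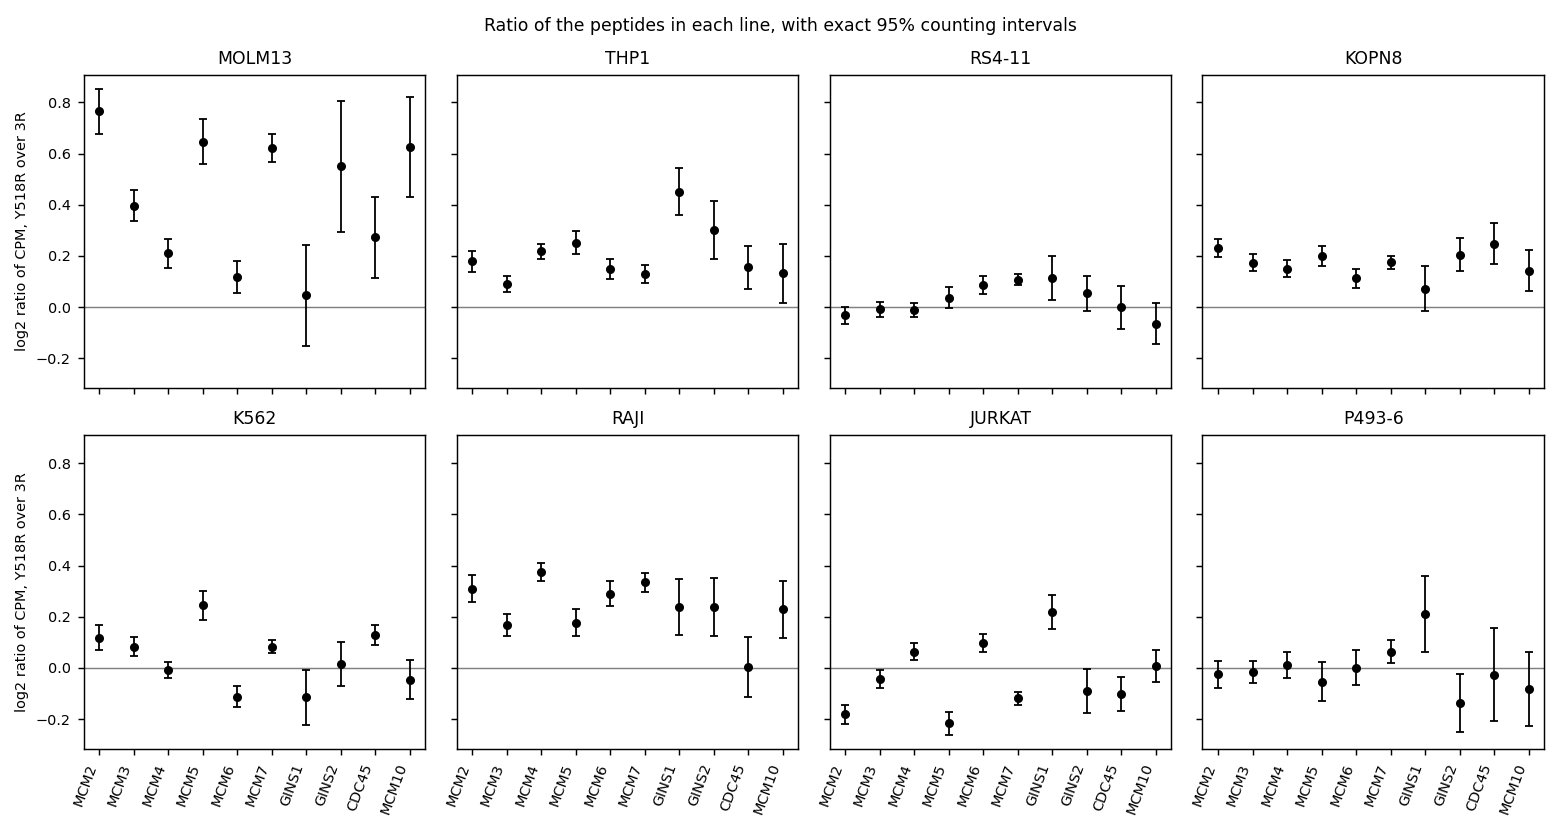
Log2 ratio of CPM, Y518R over 3R, of each helicase gene in each line, with bars for the exact 95% interval from the counts (counting error only; 1 library per peptide in a line). All 10 points lie above 0 in MOLM13, THP1, KOPN8 and RAJI, most widely spread in MOLM13, from 0.046 for GINS1 to 0.77 for MCM2; in the other 4 lines they lie on both sides of 0.

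Single lines had 1 library per peptide, so their ratios carry counting error but no replicate error and were not tested. MOLM13 had the largest ratios: the 10 genes summed to 1307 CPM with Y518R and 981 CPM with 3R, all 10 were higher, and their median log2 ratio was 0.47. In that line 6 of 10 helicase genes (MCM2, MCM3, MCM5, MCM7, GINS2 and MCM10) were at least 25% higher, where 14.6% of the 9616 genes at 10 CPM or more in either library were. GINS2 reached 10 CPM only with Y518R, at 14.03 CPM (294 counts), against 9.58 CPM (226 counts) with 3R. MCM2 had 127 CPM (2670 counts) with Y518R and 74.9 CPM (1767 counts) with 3R in MOLM13, a log2 ratio of 0.77 with an interval of 0.68 to 0.85. MCM6 at 0.12 and GINS1 at 0.046 were the lowest, and the interval of GINS1 reached below 0. Beside this, MYC was at 731 CPM with Y518R and 382 CPM with 3R in MOLM13, and MKI67, a marker of dividing cells, at 202 CPM with Y518R and 264 CPM with 3R. The list of MKI67, TOP2A and CCNB1 summed to 479 CPM with Y518R and 574 CPM with 3R there. The part of either in the helicase values was not tested.

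In THP1, which carries the same fusion by its label, all 10 genes were higher too, at a median log2 ratio of 0.17, and GINS1 alone was at least 25% higher, where 14.6% of 9787 genes were. MYC stood the other way in THP1 than in MOLM13, at 122 CPM with Y518R and 197 CPM with 3R, and MKI67 as well, at 439 CPM with Y518R and 299 CPM with 3R. KOPN8 had all 10 genes higher at a median of 0.17, from 0.072 for GINS1 to 0.25 for CDC45, with none at least 25% higher (3.85% of genes were). The interval excluded 0 for 9 of the 10 genes in KOPN8, 10 in THP1 and 9 in MOLM13. The share of all genes with such intervals was not counted, so these counts do not set the helicase genes apart. Libraries of these lines differed well beyond counting error over all genes (chi-square over its degrees of freedom 12.1, 65.5 and 39.3). RS4-11, the fourth MLL-fusion line, had 5 genes higher and 5 lower at a median of 0.018, and none at least 25% higher (1.84% of genes were).

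RAJI had all 10 genes higher, CDC45 by no more than counting error, at a median log2 ratio of 0.24. MCM4 was at 770 CPM with Y518R and 593 CPM with 3R there, and MCM7 at 691 CPM with Y518R and 547 CPM with 3R; these were the genes at least 25% higher, 2 of 10, where 7.69% of 8890 genes were. The RAJI 3R library is the one with 44.7% of reads given to no gene, against 23.4% in RAJI Y518R, and the part of that difference in the RAJI ratios was not tested. In K562, 6 genes were higher and 4 lower, at a median of 0.049; MCM5 had the highest ratio, 0.25. JURKAT and P493-6 had medians below 0, −0.066 and −0.021, with 4 of 10 genes higher in each. In JURKAT the intervals of 6 genes lay wholly below 0, led by MCM5 at −0.22 and MCM2 at −0.18, and those of GINS1, MCM6 and MCM4 wholly above it. The share of all genes with such intervals was not counted in JURKAT either, where the chi-square over its degrees of freedom was 10.4. None of the 10 genes was at least 25% higher in K562, JURKAT or P493-6, where 4.71%, 1.77% and 2.76% of genes were.

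Within the 4 MLL-fusion lines all 10 genes had a fitted change above 0, where 50.3% of all genes tested did, at a median of 0.18 (0.0012 over all genes). None passed an adjusted p of 0.05, nor did any gene (0%). At an unadjusted p under 0.05 there were 5, MCM5, GINS2, MCM7, MCM2 and CDC45, where 3.11% of genes had such a p with a higher and 2.8% with a lower level. MCM5, MCM6, MCM7, GINS1 and GINS2 were higher in all 4 lines, a count that 7.05% of genes reached. MCM5 was at 117, 282, 248 and 422 CPM with Y518R in MOLM13, THP1, RS4-11 and KOPN8, against 74.7, 237, 242 and 368 CPM with 3R. Its fitted change was 0.28 (SE 0.099, unadjusted p = 0.0135, adjusted p = 0.833). GINS2 was at 14.03, 46.0, 92.8 and 158 CPM with Y518R in the same lines, against 9.58, 37.4, 89.4 and 137 CPM with 3R, a change of 0.26 (SE 0.094, adjusted p = 0.833). Without MOLM13 the changes were 0.16 for MCM5, 0.18 for GINS2, 0.14 for MCM7 against 0.26 with it, 0.13 for MCM2 against 0.28 with it, and 0.068 for MCM10 against 0.19 with it.

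In the 4 other lines the fitted changes lay from 0.0022 (CDC45) to 0.14 (GINS1), all 10 above 0 where 48.7% of genes were, with a median of 0.051. None passed an adjusted p of 0.05, nor did any gene (0%), and none of the 10 had an unadjusted p under 0.05, against 0.414% of genes with a higher and 1.17% with a lower level. None of the 10 was higher in all 4 lines, where 4.05% of genes were; MCM4, MCM6, MCM7 and GINS1 were higher in 3 of 4, and 27.6% of genes in at least 3. MCM2 was higher in K562 and RAJI and lower in JURKAT and P493-6, and so were MCM3, MCM5, GINS2 and CDC45. GINS2 was at 83.6, 70.8, 67.4 and 42.6 CPM with Y518R in K562, RAJI, JURKAT and P493-6 and at 82.7, 60.03, 71.8 and 46.9 CPM with 3R. The values rested on RAJI: without it the median was −0.0015, and MCM2, MCM5, MCM6, GINS2 and MCM10 lay below 0, at −0.030, −0.0091, −0.0047, −0.070 and −0.039.

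**Figure D4:**
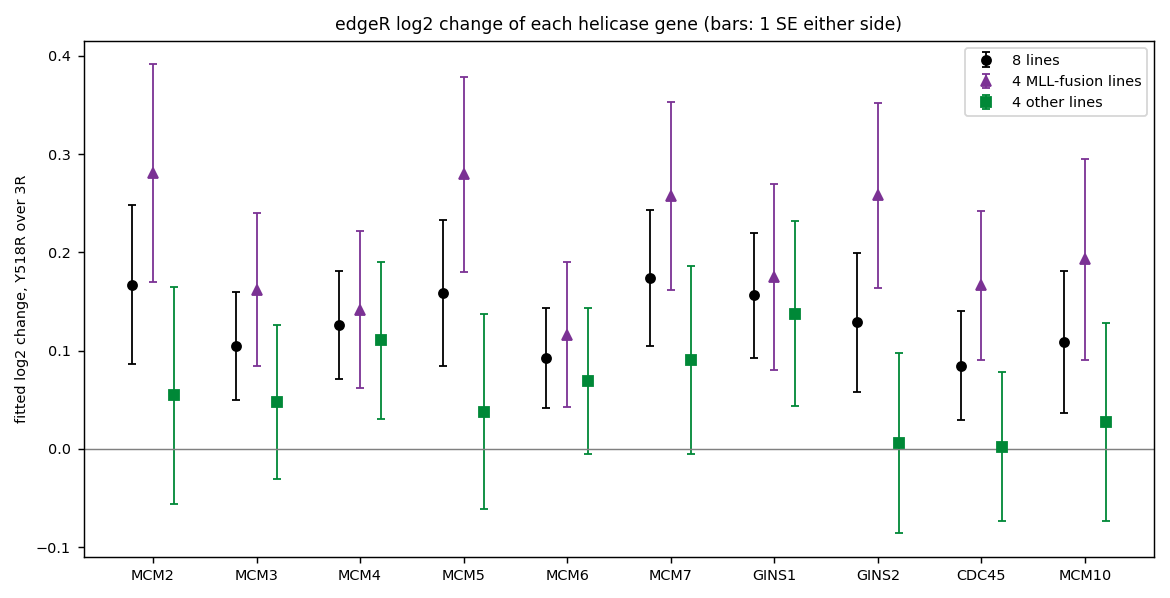
Fitted log2 change (edgeR), Y518R over 3R, of each helicase gene over 8 lines (circles), 4 MLL-fusion lines (triangles) and 4 other lines (squares), with bars of 1 SE either side. All points lie above 0, the triangles reach 0.28 for MCM2 and MCM5, and the squares for GINS2 and CDC45 lie at 0.0059 and 0.0022.

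The difference of the peptide change between the classes, MLL-fusion lines minus other lines, was tested in the same fit. None of the 10 genes passed an adjusted p of 0.05, nor did any gene (0%), and none of the 10 had an unadjusted p under 0.05, where 2.13% of genes had one with a difference above 0 and 1.66% below 0. All 10 differences lay above 0 (52.3% of genes did), with a median of 0.17, from 0.031 for MCM4 to 0.25 for GINS2 (SE 0.13, adjusted p = 0.9995). Without MOLM13 the median difference was 0.056, so its size rested in large part on that line. The changes in the other lines, against which it is taken, rested on RAJI as given above. The classes were therefore not shown to differ in the peptide change of any helicase gene.

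The helicase genes were set beside 61 other replication genes in 7 groups by role. Over 8 lines 45 of the 61 were fitted above 0, 0 were called in either direction, 7 had an unadjusted p under 0.05, and their median change was 0.047, against 0.13 for the 10 helicase genes. The nearest group was the replicative polymerases (median 0.095; 8 of 10 above 0), led by POLD2, a subunit of polymerase delta, at 0.16 (SE 0.068, unadjusted p = 0.0348, adjusted p = 0.9996), with the primase subunit PRIM2 at −0.072 at the other end. Sliding clamp, clamp loader and lagging strand genes had a median of 0.068 (10 of 12 above 0). RPA2, a subunit of the protein that coats single-stranded DNA, was higher with Y518R in 8 of 8 lines, at 0.14 (SE 0.054, unadjusted p = 0.0207, adjusted p = 0.9996), a count that 0.192% of genes reached, and the nuclease gene DNA2 was at −0.046.

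The groups for origin recognition and loading and for helicase activation had lower medians than the helicase genes. Origin recognition and loading genes had a median of 0.029 (6 of 10 above 0), with ORC1 at 0.15 and ORC2 at −0.062. Helicase activation genes had a median of 0.012 (5 of 10 above 0); TICRR, which helps load CDC45, was at 0.099 and DBF4, the activator of the kinase that phosphorylates the ring, at −0.074. The remaining subunits of the GINS complex, GINS3 and GINS4, were at 0.047 (SE 0.060) and 0.036 (SE 0.073), against 0.16 for GINS1 and 0.13 for GINS2. MCM8 and MCM9, relatives of the ring subunits that act in recombination, were at −0.014 and 0.00085. Fork protection and checkpoint genes had a median of 0.073 (7 of 7 above 0; CHEK1, with the lowest p among them, had a change of 0.099), and G1/S regulators 0.030 (8 of 10 above 0, with CCNE2 at 0.16 and E2F3 at −0.0034). No test of one group against another was made, and the groups were drawn up with earlier results of these data known.

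**Figure D5:**
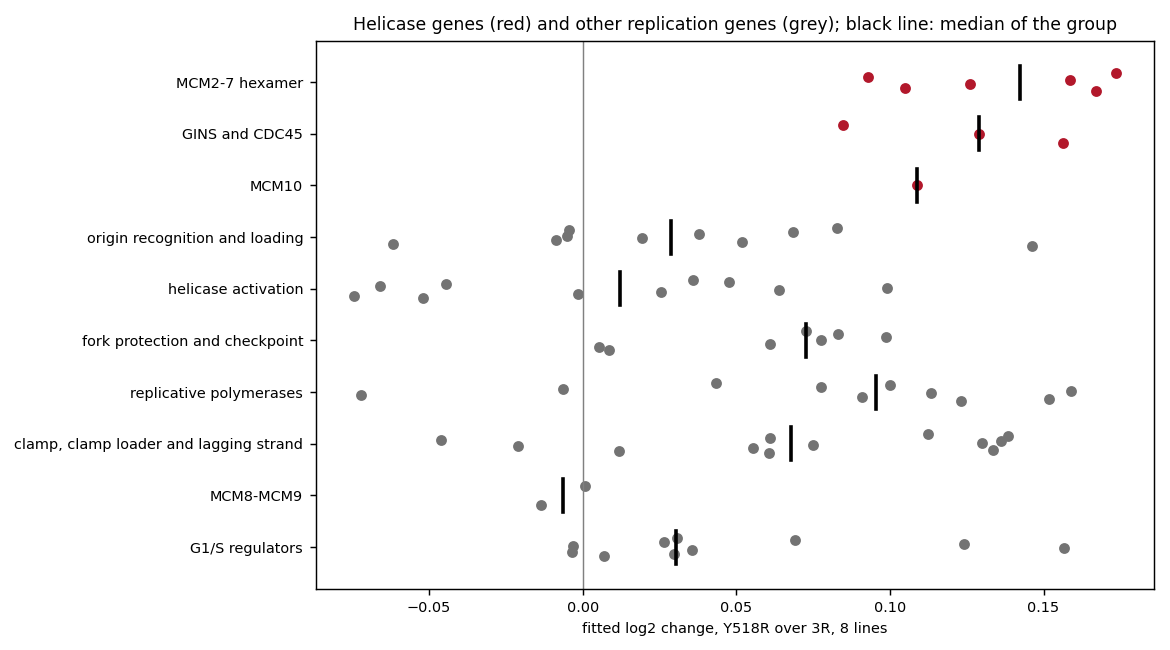
Fitted log2 change over 8 lines, Y518R over 3R, of the helicase genes (red) and 61 other replication genes (grey), 1 point per gene and 1 row per group, with a black line at the median of each group. The 10 red points lie between 0.085 and 0.17, and the grey rows reach to both sides of 0 except for fork protection and checkpoint genes.

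Among themselves the 10 genes varied together across lines. Over the 8 line means the Pearson correlation of log2 levels was 0.44 (MCM2 with CDC45) to 0.94 (MCM7 with MCM10) in the 45 pairs, with a median of 0.80. The correlations of log2 ratios ran from −0.29 (GINS1 with CDC45) to 0.99 (MCM2 with MCM3), with a median of 0.65. The lowest values of that measure involved GINS1, whose ratio was 0.046 in MOLM13, the line where MCM2, MCM5, MCM7 and MCM10 had their highest. These are descriptions over 8 points that share lines, libraries and scaling, and MOLM13 lies far from the others in the ratios.

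Of 9828 other genes at a mean of 10 CPM or more, the levels most like the mean log2 level of the 10 helicase genes over the 8 line means were those of CHEK1 (r = 0.99), PTTG1 (0.98), STMN1 (0.98), ZNF326 (0.97) and WDR62 (0.97), where the median gene was at −0.0087. Over the same points E2F1 had 0.74, MKI67 0.80 and MYC −0.61, with P493-6 at 4634 CPM of MYC with Y518R and 5277 CPM with 3R. The ratios most like the mean ratio of the 10 genes were those of ABHD11 (r = 0.98), ALDH18A1 (0.96), ELMO1 (0.96), EARS2 (0.96) and SF3A1 (0.95). E2F1 had 0.64, MYC 0.57 and MKI67 −0.29 on that measure. All of these are correlations over n = 8 lines that share libraries and depth, given as descriptions.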

How the data were processed

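RNA was measured by sequencing polyadenylated RNA of 8 human cell lines with 1 of 2 peptides (16 libraries). Each deposited file holds raw counts for 23230 gene symbols, with no normalization. The submitters' processing notes name TopHat2 2.1.1, HTSeq 0.6.1, CASAVA 1.8.4, DESeq and DESeq2 3.0, with no step for each, and both GRCh38 and hg19; the strand setting of the counter is not stated. The 5 entries that name no gene stayed out of library sizes and tests (17.7% to 44.7% of reads given to no gene, 1.37% to 2.18% to several genes).

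The quasi-likelihood test of edgeR 4.0.16 (R 4.3.3) was run on the counts with TMM scaling, a minimum count of 10 in filterByExpr, cell line as block and Benjamini-Hochberg adjustment over all genes tested, with calls at 0.05. The comparison over 8 lines had 1 peptide term, and the classes shared a fit with a term each. The SE is the absolute change over the square root of F. The script was tested on simulated data with changes larger than any peptide change fitted for the helicase genes. That test says nothing about changes as small as theirs. The line pairs the peptides by the labels, and deviations of the libraries of a line from the peptide means correlated at 0.95 to 0.99. Libraries of a line differed well beyond sampling noise (chi-square over its degrees of freedom 8.66 to 65.5). Separate cultures within a line are not recorded, so p-values reflect only the spread between these samples, which may be technical.

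Single lines were compared by ratios of TMM-scaled CPM with exact 95% intervals and counts of genes at least 25% higher among those at 10 CPM or more. Intervals cover counting error only, since copies made in PCR cannot be recognised here. A count of 0 allows up to 3 counts, 0.0698 to 0.155 CPM by library. Transcript lengths and exon overlaps are from GENCODE v29, promoters from RefSeq. Named genes were all 10 helicase genes, per group of other replication genes the lowest p above and below 0, and the 5 genes most alike in level and in ratio; GINS3, GINS4, E2F1, MYC and MKI67 were named beside them for their roles. The helicase genes and the lists were chosen with earlier results of these data known. Alternatives were DESeq2 1.42.0, limma 3.58.1 (voom), DESeq2 size factors, no filter, no line block, each line left out, and RAJI and THP1 left out together (chosen after seeing the data).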

Additional observations from a re-analysis of the deposited data

Results flagged for a closer look

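In 90 groups of 4 or 8 values of the helicase genes, 8 values lay far from the others of their group by Dixon's test at 95%. Chance alone would mark about 1 of 20 groups if they were independent. These groups share lines, libraries and values, so the 8 values cannot be read as an excess. With 3R, MCM2 in MOLM13 was at 6.23 log2 CPM, far below the 7 other lines, and among the 4 MLL-fusion lines MCM3 at 7.43 and MCM4 at 7.73 in MOLM13 lay far below the other lines. P493-6 lay far below the other non-MLL lines for MCM6, at 6.89 log2 CPM with Y518R and 6.89 with 3R. In the log2 ratio of Y518R over 3R, MOLM13 stood above the other MLL-fusion lines for MCM7 (0.62) and above the 7 other lines for MCM10 (0.63), and K562 stood below the other non-MLL lines for GINS1 (−0.11). Outside the helicase genes, the share of reads given to no gene in RAJI 3R (44.7%) lay far above the 7 other 3R libraries.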

How the results depend on the processing

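All 10 helicase genes stayed above 0 over 8 lines and over the MLL-fusion lines in every alternative run, and none was called in any. The median change over 8 lines lay between 0.088 (without MOLM13) and 0.15 (without RS4-11), and was 0.11 with no line block and 0.091 without RAJI and THP1. Genes called over 8 lines were 3 with no filter and 3 with limma-voom, against 0. Over MLL-fusion lines 52 were called with no filter, 1 with DESeq2 and 20 with limma-voom (0 to 3 with a line left out), against 0. Over the other lines 1 was called with no filter and 2 with limma-voom, against 0. For the class difference 9 were called with no filter, 2 with DESeq2 and 2 with limma-voom (0 to 1 with a line left out), against 0. Between classes with 3R, 477 were called by DESeq2, 4 by limma-voom, 4 with the Y518R libraries and 1 without RAJI and THP1 (4 to 11 with a line left out), against 7. No filter tests more genes, and the cause of the other shifts was not tested.

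Signs turned mainly in the other lines. With a line left out, MCM2 ran from −0.030 to 0.14, MCM5 from −0.037 to 0.12, MCM6 from −0.0047 to 0.12, GINS2 from −0.070 to 0.053, CDC45 from −0.049 to 0.041 and MCM10 from −0.039 to 0.061. Without RAJI and THP1 these lines gave −0.029 for MCM2, −0.0076 for MCM5, −0.0029 for MCM6, −0.068 for GINS2 and −0.037 for MCM10, and CDC45 was −0.00066 with DESeq2 size factors. In the class difference, MCM4 was −0.014 with no replicate block and −0.0053 to 0.12 with a line left out, MCM6 −0.010 to 0.12, and GINS1 −0.059 to 0.071 and −0.024 without RAJI and THP1. The median difference was 0.095 with no replicate block, against 0.17. With 3R, MCM2 was −0.092 by limma-voom and −0.11 to 0.47 with a line left out, MCM7 −0.44 to 0.10, and the median of the 10 genes −0.31 to 0.26 (−0.17 by limma-voom). With library totals alone the median ratio was −0.0041 in RS4-11 and 0.0060 in P493-6. Signs of single ratios near 0 turned with the scaling as well. Among them, GINS1 in MOLM13 was −0.035 with library totals alone. With DESeq2 size factors CDC45 in RAJI was −0.0014 and MCM6 in P493-6 was −2.3e-05. The counts of genes or lines higher with Y518R therefore hold for TMM scaling. Limits: 1 library per line and peptide, lines as replicates, and a RAJI 3R library unlike the rest.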

Other observations

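CDC45 lies on chromosome 22, and its level in K562 stood apart from every other line, so its neighbours were looked at after that value was seen. The neighbours were the 10 tested genes nearest to CDC45 in RefSeq gene order, 5 on either side. Genes with too few counts to be tested were passed over. K562 was the highest of the 8 lines for 9 of these neighbours (90.0%), where it was the highest for 16.5% of all 13043 genes tested. HIRA, a histone chaperone gene, was at 423 CPM with Y518R and 380 CPM with 3R in K562, against a median of 108 CPM in the 14 other libraries. UFD1L was at 302 CPM with Y518R and 295 CPM with 3R in K562 (median elsewhere 70.1), and MRPL40, a mitochondrial ribosomal protein gene, at 102 CPM with Y518R and 95.1 CPM with 3R (median elsewhere 22.7). TBX1 was at 39.1 CPM with Y518R and 31.0 CPM with 3R in K562 and at 7.85 CPM or less in every other library. CLTCL1 was the exception, with K562 ranked 3 of 8. No cause was tested.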
